A study of Mus musculus with 2 samples.

Results

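Guanylate-binding proteins (GBPs) and immunity-related GTPases (IRGs) were followed in mouse colon cancer cells after knockdown of Setdb1, a histone H3 lysine methyltransferase. The 10 genes were chosen by name: Gbp2, Gbp3, Gbp5, Gbp6, Gbp7, Gbp9, Irgm1, Irgm2, Igtp and Iigp1, that is 6 GBP and 4 IRG genes of 54680 loci in the deposited table. CT26 is a line from a colon carcinoma of the BALB/c strain. The group CT26shSetdb1 had been infected with a lentivirus that carries a Setdb1 short hairpin RNA (shSetdb1), and the group CT26shCtrl the empty knockdown vector, on an otherwise wild type background. Both were grown for 6 days in RPMI medium with fetal bovine serum, by when the submitters saw a changed phenotype in the knockdown cells and called them differentiated. Whether either culture was a clone or a pool of infected cells is not said. Each of the 2 groups had 1 library, so there was no replicate check and no test between conditions, and every difference below describes these libraries.

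GBPs and IRGs are large GTPases that interferons induce in most cell types. They gather on the membranes of vacuoles that hold parasites or bacteria, and on bacteria in the cytosol, and help to break them open. GBPs belong to the dynamin superfamily, and some carry a lipid anchor at the C terminus. The IRGs fall into regulators of the M class (Irgm1, Irgm2 and Igtp, which is also called Irgm3), which sit on the membranes of the cell itself, and effectors such as Iigp1 (Irga6), which load onto the vacuole. Their promoters are known for the interferon-stimulated response element (ISRE), bound by STAT2 with IRF9 or by other IRF proteins, and for the gamma-activated site (GAS).

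The knockdown library held 19045830 reads and the control library 18421604, a ratio of 1.034. Setdb1 itself had 1340 reads in control cells and 317 in knockdown cells. Levels are given in FPKM (fragment counts divided by gene model length and sequencing depth) and as the whole reads recovered from them. Read ratios are knockdown over control, scaled to the total of each library, with a 95% exact binomial (Clopper-Pearson) interval. Such an interval covers counting error only, because amplified reads without molecular identifiers are not independent molecules. The log2 ratios are of FPKM plus a pseudocount of 1, a scale on which the change of a low gene is understated. In RNA from bulk cultures, more cells with a transcript and more transcript per cell cannot be told apart.

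The promoters are shown first, since GBP and IRG genes are known targets of interferon factors. Whether such factors act on them in these cells was not tested. RefSeq start sites on GRCm38.p6 were used for 7 of the 10 members, with 8 windows that run from 250 bases before the start to 50 bases after it. Gbp6, Gbp9 and Iigp1 are named only. Both strands were searched for the ISRE core GAAANNGAAA and for the GAS letters TTCNNNGAA. Below, each window is given 5′ to 3′ on the gene's strand, and capitals mark the bases of a match. These are letters of the C57BL/6J reference and not of CT26 cells. Those shown are Gbp3, which had the highest read ratio of the members, Gbp2, the most abundant GBP, and the IRG regulators.

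Gbp3, chr3:142559794-142560093, plus strand: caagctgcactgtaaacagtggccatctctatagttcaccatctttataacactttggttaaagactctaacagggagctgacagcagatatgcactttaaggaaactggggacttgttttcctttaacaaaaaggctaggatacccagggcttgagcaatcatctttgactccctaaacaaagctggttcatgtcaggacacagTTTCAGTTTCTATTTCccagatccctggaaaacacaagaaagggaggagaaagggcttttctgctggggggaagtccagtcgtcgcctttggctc

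Gbp2, chr3:142620413-142620712, plus strand: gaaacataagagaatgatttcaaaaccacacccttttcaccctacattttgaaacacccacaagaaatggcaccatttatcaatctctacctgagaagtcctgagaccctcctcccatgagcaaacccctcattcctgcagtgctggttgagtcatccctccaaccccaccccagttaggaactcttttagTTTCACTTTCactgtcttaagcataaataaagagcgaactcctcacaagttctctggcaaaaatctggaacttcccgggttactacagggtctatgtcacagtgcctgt

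Irgm1, chr11:48871371-48871670, minus strand: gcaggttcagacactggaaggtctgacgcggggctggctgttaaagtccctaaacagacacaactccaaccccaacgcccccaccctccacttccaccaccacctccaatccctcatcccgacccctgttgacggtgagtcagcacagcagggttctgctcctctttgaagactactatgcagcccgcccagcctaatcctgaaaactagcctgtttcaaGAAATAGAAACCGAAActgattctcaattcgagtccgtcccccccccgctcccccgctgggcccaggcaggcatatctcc

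Igtp, chr11:58199306-58199605, plus strand: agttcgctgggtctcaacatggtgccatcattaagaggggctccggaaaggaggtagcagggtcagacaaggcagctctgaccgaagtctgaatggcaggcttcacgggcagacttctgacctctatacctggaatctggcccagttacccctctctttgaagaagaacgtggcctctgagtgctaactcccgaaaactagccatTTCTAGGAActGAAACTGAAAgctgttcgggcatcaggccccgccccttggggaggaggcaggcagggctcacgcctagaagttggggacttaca

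Irgm2, chr11:58214727-58215026, plus strand: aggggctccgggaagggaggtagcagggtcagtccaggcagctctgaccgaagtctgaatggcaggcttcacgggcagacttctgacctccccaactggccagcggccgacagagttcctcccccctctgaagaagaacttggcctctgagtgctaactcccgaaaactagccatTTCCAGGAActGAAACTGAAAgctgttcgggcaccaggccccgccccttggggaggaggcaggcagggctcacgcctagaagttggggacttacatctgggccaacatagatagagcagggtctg

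The ISRE core lay in a window of 7 of the 7 members searched. By windows it was in 7 of their 8, against 1131 (3.44%) of all 32851 promoter windows of this length. In Gbp3 it occurred as 2 overlapping matches that began 45 and 39 bases before the start, on the minus strand. Irgm1 had the same kind of overlapping pair on its plus strand, 30 and 24 bases before the start. Gbp2 had 1 match at 59 bases, Gbp7 1 at 53 bases, and Gbp5 1 at 165 bases, the farthest. The second annotated start of Gbp3, at chr3:142560106-142560405, had no match to either motif in its window. GAS letters were present in 4 of the 7 members, Gbp5, Gbp7, Igtp and Irgm2. By windows this was 4 of 8, against 8.30% of all windows, and no GAS match overlapped an ISRE match. Igtp and Irgm2 have near copies of 1 promoter: 247 of 271 aligned positions were identical, and in each a GAS match stood just before the ISRE match. A match to these letters is a description of the sequence and does not show that a factor binds there.

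**Figure D1:**
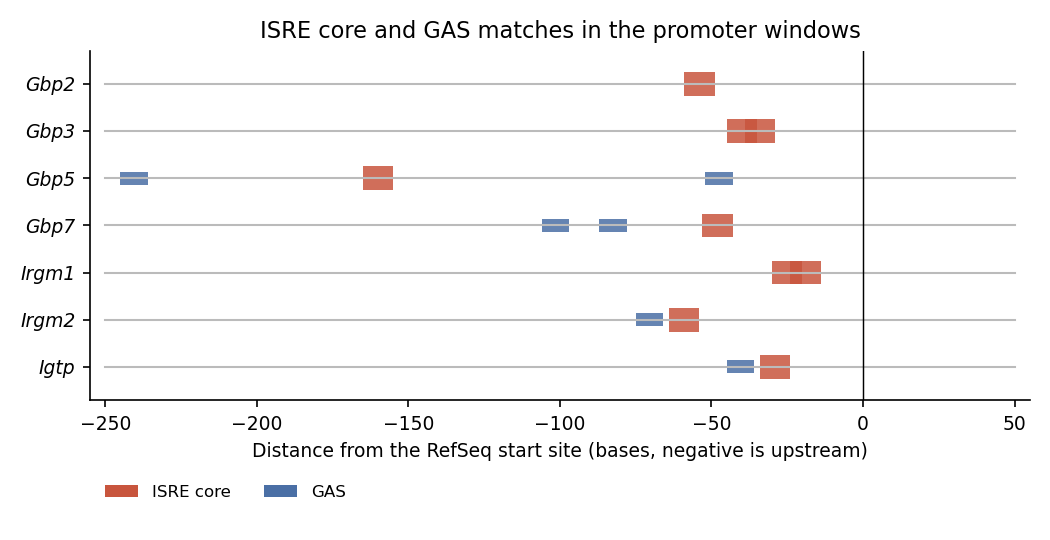
Positions of ISRE core (tall red boxes) and GAS (short blue boxes) matches in the promoter windows of 7 genes, with the distance from the RefSeq start site in bases on the x axis. Only the Gbp3 window that has a match is drawn; the ISRE matches of 6 genes start within 64 bases upstream, and that of Gbp5 starts at 165 bases.

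For comparison, all genes with a promoter in the reference table were searched too, the members not removed. The ISRE core was found in 289 of 7649 genes at 1 FPKM or more (3.78%). It was in 43 of the 467 that were at least 2-fold higher (9.21%) and in 14 of the 307 that were at least 2-fold lower (4.56%). The members Gbp2, Gbp3, Gbp7, Irgm1, Irgm2 and Igtp are among the 289 and the 43. So are the other family genes Gbp2b and Tgtp1, so these shares are not independent of the family. Of 11 other family genes with a promoter window it was present in 7: Gbp2b, Tgtp1, Tgtp2, Gm12250, Gm12185, Gm1966 and 9930111J21Rik1. Of these, Gm12185 had 1 read in control cells and 4 in knockdown cells, Gm1966 had 0 in both, and 9930111J21Rik1 had 26 and 16. It was not found in Ifi47, Irgq, Gm5431 or 9930111J21Rik2.

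The GBP genes of chromosome 3 hold Gbp2 and Gbp3, the GBP members with most reads in knockdown cells. Gbp2 (ENSMUSG00000028270, 142620602 to 142638008, plus strand), one of the GBPs with a C-terminal lipid anchor, was at 1.78 FPKM (84 reads) in control cells and 11.3 FPKM (534 reads) in knockdown cells. The knockdown library was high, with a read ratio of 6.15 (4.88 to 7.83) and a log2 ratio of 2.15. Gbp3 (ENSMUSG00000028268, 142560026 to 142573209, plus strand) went from 0.180 FPKM (11 reads) to 3.76 FPKM (230 reads). This gene, near silent in control cells, had a read ratio of 20.2 (11.1 to 41.1) and a log2 ratio of 2.01. Gbp7 (ENSMUSG00000040253, 142530342 to 142550149, plus strand) was at 0.266 FPKM (28 reads) and 1.73 FPKM (182 reads). Its read ratio was 6.29 (4.21 to 9.72), and its log2 ratio was 1.11. Of the exon bases of Gbp7, 11.3% are shared with Gm43802, so some of its reads are uncertain.

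Gbp5, known for promoting assembly of the NLRP3 inflammasome, stayed low in both libraries. The gene (ENSMUSG00000105504, 142493978 to 142522344, plus strand) had 6 reads in control cells and 44 in knockdown cells, that is 0.0483 and 0.354 FPKM. By reads it was higher in knockdown cells, with a ratio of 7.09 (3.01 to 20.4), while its log2 ratio was only 0.37 because the pseudocount exceeds both levels. Gbp2b (mouse Gbp1), the fifth gene of this cluster and no member, went from 41 to 145 reads, a ratio of 3.42 (2.40 to 4.96). Summed over these 5 genes, 170 reads became 1135, a ratio of 6.46 (5.49 to 7.63).

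The GBP genes of chromosome 5 were scarcely expressed. Gbp9 (ENSMUSG00000029298, 105077630 to 105139539, minus strand) had 16 reads in control cells and 87 in knockdown cells, or 0.165 and 0.898 FPKM. Its read ratio of 5.26 (3.06 to 9.61) was close to that of its neighbour Gbp4, which is no member and went from 24 to 143 reads, a ratio of 5.76 (3.72 to 9.29). Gbp8, whose first exon shares 61 bases with those genes, had 18 and 17 reads, a ratio of 0.913 (0.442 to 1.88), and this interval does not overlap that of Gbp9 or Gbp4. Gbp6 (ENSMUSG00000104713, 105270702 to 105293698, minus strand) was near silent, with 0 reads in control cells and 2 in knockdown cells. Since both counts are at or under 3 reads, no fold is given. Reads of Gbp6 are also hard to place, as 70.7% of the 50-base windows of its transcripts also occur in other genes, mainly Gm43302, which overlaps it. Gbp10 had 0 and 2 reads, and Gbp11 had none in either library.

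The 3 IRG regulators were the most abundant members in control cells, at about the same level. Irgm1 (ENSMUSG00000046879, chromosome 11, 48861968 to 48871683, minus strand), which is linked to autophagy and mitochondria, was at 3.22 FPKM (350 reads) in control cells and 8.56 FPKM (932 reads) in knockdown cells. Its read ratio was 2.58 (2.28 to 2.92), and its log2 ratio was 1.18. Irgm2 (ENSMUSG00000069874, chromosome 11, 58199618 to 58222782, plus strand) went from 2.94 FPKM (203 reads) to 7.91 FPKM (547 reads), with a read ratio of 2.61 (2.21 to 3.08) and a log2 ratio of 1.18. Both regulators were higher by nearly the same factor.

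Igtp (ENSMUSG00000078853, chromosome 11, 58199556 to 58207591, plus strand) was at 3.01 FPKM (114 reads) in control cells and at 19.4 FPKM (733 reads) in knockdown cells. It had the highest log2 ratio of the members, 2.34, and a read ratio of 6.22 (5.10 to 7.64). The interval of Igtp does not overlap that of Irgm2, although the promoter windows of these neighbours are nearly alike. Windows and counts do not pair 1 to 1 here. The Irgm2 model begins at 58199618, inside Igtp, and the Irgm2 window at 58214727 lies within that model. Whether Irgm2 reads include transcripts that start before this window was not tested. Their gene models share 162 exon bases, 8.01% of Igtp and 4.39% of Irgm2, and how reads in both were counted is not given in the sources used here. Summed over the 3 regulators, reads went from 667 to 2212, a ratio of 3.21 (2.94 to 3.50).

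IRG effectors had few reads, apart from Ifi47. Iigp1 (ENSMUSG00000054072, chromosome 18, 60376029 to 60392627, plus strand), which loads onto parasite vacuoles, had 2 reads in control cells and 6 in knockdown cells, or 0.0342 and 0.103 FPKM. The ratio of 2.90 had an interval of 0.519 to 29.4, so a difference was not detectable at this depth. Its neighbour Gm4951 had 0 and 12 reads, at least 3.87-fold higher with the control set at 3 reads, and Gm12250 (Irgb10) had 0 and 10 reads, at least 3.22-fold higher by the same convention. The counting intervals of these ratios, taken from the 0 reads themselves, begin lower, at 2.69 for Gm4951 and 2.17 for Gm12250. Tgtp1, Tgtp2 and Ifi47, added to the family after their values were seen, lie beside Irgm1. Tgtp1 went from 1 to 64 reads, a ratio of 61.9 (10.7 to 2483), and Tgtp2 from 20 to 76, a ratio of 3.68 (2.22 to 6.35). They are near copies, since 81.2% of the 50-base windows of Tgtp1 and 86.6% of those of Tgtp2 occur in another gene, mainly each other, so the split of reads between them is uncertain. Ifi47 (Irgd) was the most abundant effector in control cells, with 284 reads (6.13 FPKM), and had 243 reads (5.25 FPKM) in knockdown cells, a ratio of 0.828 (0.694 to 0.986). Its models share 8.77% of their exon bases with Olfr56 and Gm12188. Without Ifi47, 6 effector genes together went from 24 to 169 reads, a ratio of 6.81 (4.43 to 10.9), and with it the ratio was 1.29 (1.11 to 1.505). Tgtp1 and Tgtp2 gave 21 of those 24 reads and 140 of the 169.

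**Figure D2:**
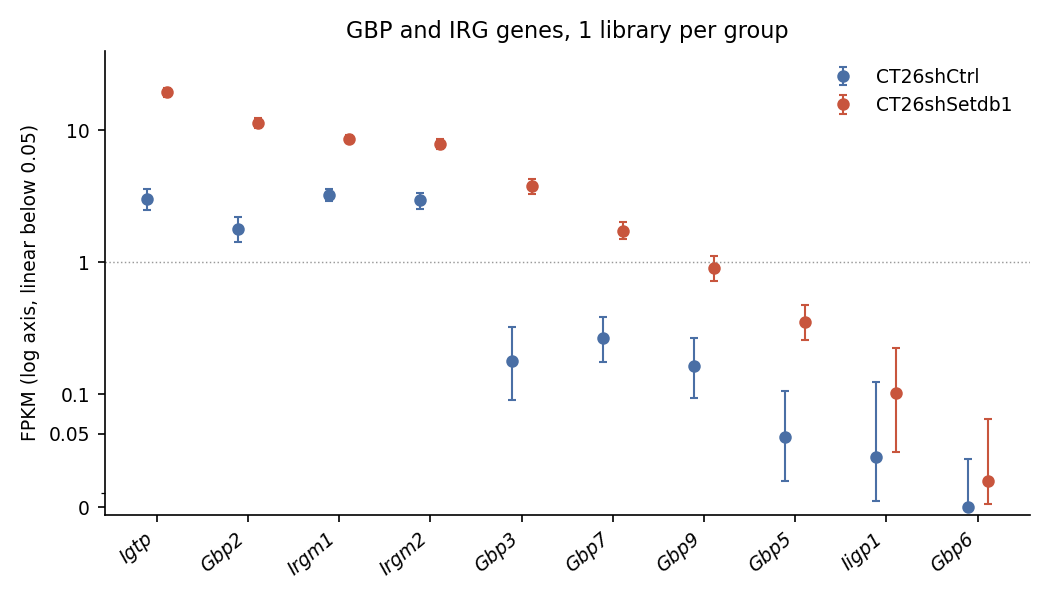
FPKM of the 10 genes in CT26shCtrl (blue) and CT26shSetdb1 (red), 1 library each, on a log axis that is linear below 0.05; bars are 95% exact Poisson intervals of the reads, which cover counting error only, and the dotted line is 1 FPKM. Igtp is highest in knockdown cells at 19.4 FPKM, and the bars overlap between the libraries for Iigp1 and Gbp6.

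**Figure D3:**
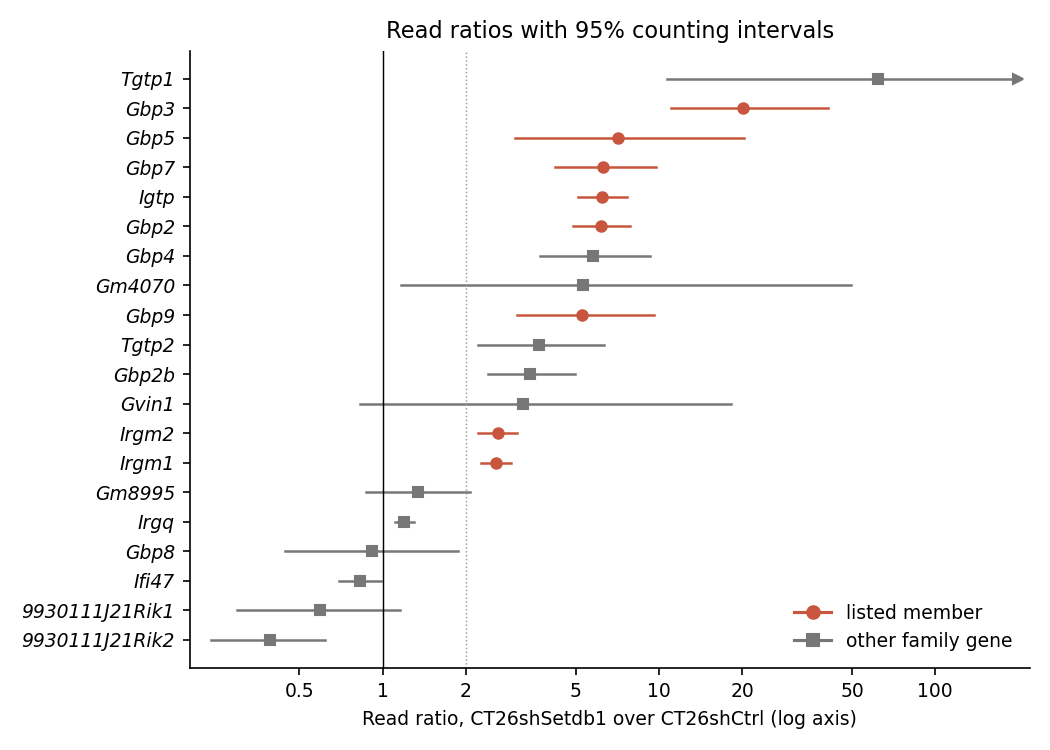
Read ratios, knockdown over control on a log axis, with 95% counting intervals for members (red circles) and other GBP, IRG and related genes (grey squares) that have at least 1 control read and over 12 reads in all. Gbp3 has the highest ratio of the members, 20.2, and Irgm1 and Irgm2 have the lowest of the members drawn, 2.58 and 2.61. Gbp8, Ifi47, 9930111J21Rik1 (0.595) and 9930111J21Rik2 (0.390) lie below 1; an arrow marks an interval that runs past the axis.

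All 10 members had more reads, not scaled to the library totals, in knockdown cells than in control cells. For Gbp6 and Iigp1 the counting interval of the ratio included 1, so a difference was not detectable. Among the genes that reached 1 FPKM in either library, 5293 of 10671 had a log2 ratio above 0. By the log2 ratio, 6 of the 10 were at least 2-fold higher, Gbp2, Gbp3, Gbp7, Irgm1, Irgm2 and Igtp, and 0 were 2-fold lower. The same rule called 6.81% of the 10671 genes that reached 1 FPKM in either library as higher and 4.85% as lower. The 4 members under 1 FPKM in both libraries were Gbp5, Gbp6, Gbp9 and Iigp1. Gbp3 and Gbp7 passed that level only through the knockdown library, and a gene that does so is likely to be called, so their calls weigh less than those of Gbp2, Irgm1, Irgm2 and Igtp, the 4 members above 1 FPKM in both libraries. By reads, the counting interval lay wholly above 2-fold for 8 of the 10, all but Gbp6 and Iigp1, against 4.26% of the 18909 loci with any read. This count was chosen after seeing the data. At 4-fold or more on the log2 scale, 3 members remained, Gbp2, Gbp3 and Igtp, against 1.09% of all genes. The median log2 ratio was 1.60 over the 6 members at 1 FPKM and 1.14 over all 10, beside a median of -0.000391 over all genes at 1 FPKM. Among those 10671 genes Igtp stood at rank 71 from the highest log2 ratio, Gbp2 at rank 91 and Gbp3 at rank 113, while Irgm1, Irgm2 and Gbp7 stood at ranks 508, 510 and 592.

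**Figure D4:**
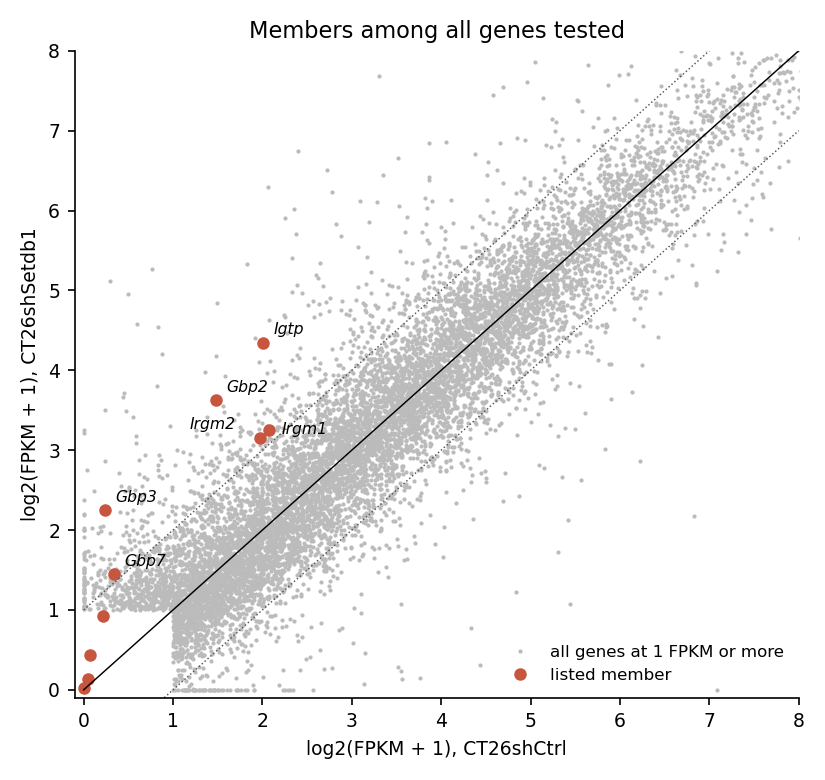
log2(FPKM + 1) in control cells (x axis) and the knockdown library (y axis) for all genes at 1 FPKM or more in either (grey) and the 10 members (red). The solid line marks equal levels and the dotted lines a 2-fold difference; genes at higher levels lie outside the axes, and the 6 labelled members lie on or above the upper dotted line.

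The order of the members changed between the libraries. In the control library Irgm1, Igtp and Irgm2 led at 3.22, 3.01 and 2.94 FPKM, with overlapping counting intervals, followed by Gbp2 at 1.78 FPKM. Gbp7, Gbp3 and Gbp9 came next at 0.266, 0.180 and 0.165 FPKM, again with overlapping intervals. In the knockdown library Igtp led at 19.4 FPKM (17.98 to 20.8) and Gbp2 was next at 11.3 FPKM (10.4 to 12.3), each apart from its neighbours in the order. Irgm1 at 8.56 FPKM (8.02 to 9.13) and Irgm2 at 7.91 FPKM (7.26 to 8.61) could not be told apart by their intervals. Of the members' summed FPKM, Igtp made up 25.9% in control cells and 35.8% in knockdown cells, and Irgm1 27.6% and 15.9%. The sum over the 10 genes was 11.6 FPKM in control cells and 54.0 FPKM in knockdown cells.

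Genes of other families beside the clusters were examined next. Within 500 kb of the 5 clusters, 36 genes of other families reached 1 FPKM. On the log2 scale 0 of them were 2-fold higher and 2 were 2-fold lower, with log2 ratios from -1.34 to 0.99 and a median of -0.0538. Over all genes at 1 FPKM the shares were 6.81% higher and 4.85% lower, so few calls would be expected among 36 genes. By reads, Trim7, beside Irgm1, went from 46 to 169, a ratio of 3.55 (2.55 to 5.04), and was the 1 neighbour whose counting interval lay above 2-fold. With a pseudocount of 0.1 in place of 1, Trim7 and 2010001A14Rik were called 2-fold higher. The nearest on each side of the chromosome 3 GBP genes were Pdlim5 at -0.47 and Gtf2b at 0.35. On chromosome 5 the nearest was Lrrc8b at -0.51, and there was no such gene within that distance on the other side. Irgm1 and its neighbours had Trim7 (0.73) and Mgat1 (0.34) on their sides, and Psme2b (0.85) lay within the cluster. Igtp and Irgm2 lay between Mrpl22 (-0.35) and 4930438A08Rik, which had 68 reads in control cells and 3 in knockdown cells (-1.34). Beside Iigp1 and Gm4951 the nearest gene was Smim3 at 0.21. An ISRE core was found in 3 of the 22 neighbours with a promoter window, Pdlim5, Rack1 and Sh3bp5l, and their log2 ratios were -0.47, -0.45 and -0.38.

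**Figure D5:**
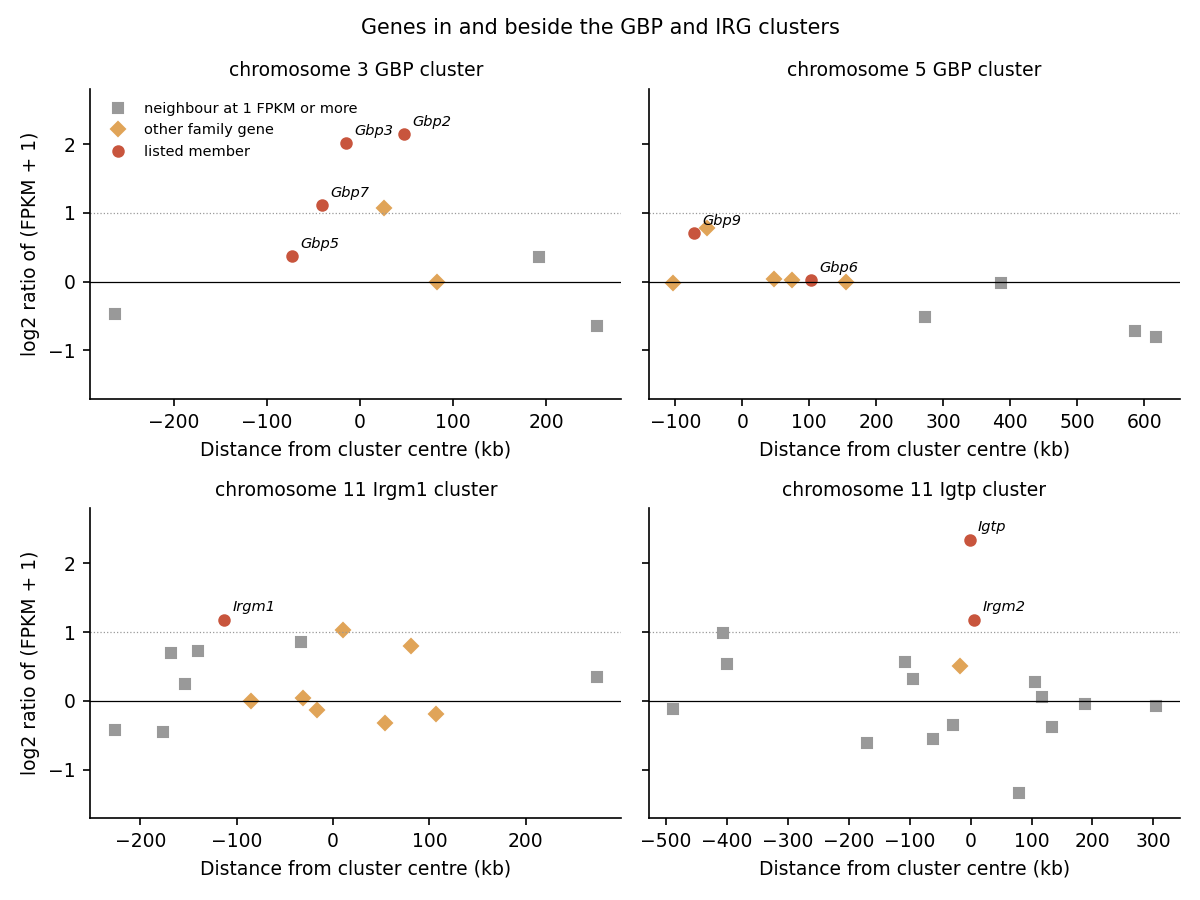
log2 ratio of (FPKM + 1), knockdown over control, against the distance from the centre of each of 4 clusters in kb, for members (red), other family genes (orange) and genes of other families at 1 FPKM or more (grey). Members reach 2.34, and every grey gene lies below the dotted 2-fold line on this scale.

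Interferon ligand genes, the signals that induce GBPs and IRGs, had almost no reads. Of 20 ligand genes, 19 had 0 reads in both libraries, Ifng among them, and Ifnb1 had 1 read in control cells and 5 in knockdown cells, a ratio of 4.84 with an interval of 0.541 to 229. Of 18 genes of interferon receptors, signalling and feedback, 4 were called 2-fold higher on the log2 scale and 0 lower (median 0.75). Of all genes at 1 FPKM, 6.81% were called higher and 4.85% lower. The highest was Usp18, a brake on interferon receptor signalling, at 3.10, and the lowest Jak2, a kinase of the interferon gamma receptor, at -0.82. By reads, Jak2 went from 239 to 94, a ratio of 0.380 (0.296 to 0.485), so its counting interval lay wholly beyond a 2-fold decrease. The counting intervals of 5 genes in the list lay above 2-fold: Stat2, Irf8, Irf9, Socs3 and Usp18. A few factors that bind the ISRE were looked at after their values were seen. Stat2 went from 5.21 to 27.5 FPKM (log2 ratio 2.20) and Irf9 from 6.34 to 26.0 FPKM (1.88). Irf1, at 9.84 and 19.3 FPKM (0.91), was under the 2-fold call.

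Genes that respond mainly to type I interferon and those used as readouts of interferon gamma gave different counts. Of 19 type I genes, 18 reached 1 FPKM and 17 of these were at least 2-fold higher, with a median of 2.68, from 0.04 for Ifit2 to 4.91 for Irf7. Only 11 of the 18 reached 1 FPKM in both libraries. The others passed only through the knockdown library, so their calls weigh less. Of 16 genes of the interferon gamma class, 7 reached 1 FPKM, 6 of them in both libraries. At least 2-fold higher were 2, with a median of 0.98, from -0.44 for Cd274 to 1.55 for Psmb8. Cxcl9 had 0 reads in both libraries, and Ciita, the regulator of MHC class II, had 1 and 0. Nos2, under 1 FPKM in both libraries, went from 5 to 60 reads, a ratio of 11.6 (4.71 to 37.0). By reads, the counting interval lay above 2-fold for 3 of the 16, Nos2, Psmb8 and Psmb9, and for 18 of the 19 type I genes. Over every gene of a list, the low ones included, the medians were 2.63 for the 19 type I genes, 0.0526 for the 16 of the interferon gamma class and 1.14 for the 10 members. The differences between lists were not tested.

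On the log2 scale, 0 genes of the machinery that GBPs and IRGs use were called at 2-fold. With 6.81% of all genes at 1 FPKM called higher and 4.85% lower, lists this short would hold few calls or none. Of 6 genes for the lipid anchor of prenylated proteins, 0 were called, with log2 ratios from -0.66 for Pggt1b to 0.64 for Icmt. Of 10 genes at 1 FPKM for the ATG conjugation that directs IRGs and GBPs to vacuoles, 0 were called, from -0.72 for Atg5 to 0.33 for Atg16l1. The ubiquitin ligases and receptors that mark vacuoles had 0 of 6 called, from -0.76 for Sqstm1 to 0.98 for Trim21. By reads, Trim21, a ubiquitin ligase, went from 71 to 207, a ratio of 2.82 (2.14 to 3.75), so its counting interval lay above 2-fold. Pggt1b, a subunit of the enzyme that attaches the geranylgeranyl anchor, had 82 and 33 reads, a ratio of 0.389 (0.252 to 0.590). For inflammasome genes, which act downstream of GBPs, 4 of 9 reached 1 FPKM and 0 were called, from 0.08 for Nlrp3 to 0.47 for Aim2. Of those under 1 FPKM, Casp4 had 16 and 17 reads. Nlrc4 had 9 in control cells and 0 in knockdown cells. The counting interval of its ratio, 0 to 0.490, lay wholly beyond a 2-fold decrease. Other large GTPases of the dynamin type, which interferon is not known to induce, had 0 of 8 called, from -0.70 for Atl3 to 0.47 for Dnm1. The medians of these 5 lists ran from -0.0728 for ATG conjugation to 0.23 for inflammasome genes. The protein-coding genes above 5 FPKM with log2 ratios nearest to the median of the 6 members were Cd82, Ccne1 and Mxd3, at 1.60, 1.61 and 1.61, a likeness over 1 contrast of 2 libraries.

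Markers of other cells and of colon epithelium were set beside these results. Of 12 leukocyte markers, 6 had 0 reads in both libraries (among them Itgam, Adgre1, Tyrobp, Fcer1g and Cd3e), and Ptprc, the common leukocyte marker, had 0 reads in control cells and 4 in knockdown cells. The 2 that reached 1 FPKM were Cd68, from 245 to 2360 reads, and Cd14, from 638 to 1217 reads, and the summed level of the list was 33.1 FPKM in control cells and 142 FPKM in knockdown cells. Of 5 endothelial markers, Pecam1, Cdh5 and Kdr had 0 reads in both libraries, and the list summed to 0.460 and 0.542 FPKM. Of 11 colon epithelial markers, 3 reached 1 FPKM, all at least 2-fold higher, with Krt20 at 5.07 and 35.6 FPKM and Krt18 at 37.7 and 90.0 FPKM. Krt19 passed 1 FPKM only through the knockdown library, with 1 read in control cells and 53 in knockdown cells. Epcam, Cdh1 and Cdx1 had 0 reads in both, so these markers of colon epithelium were not detected at this depth. Cdx2 had 5 reads in control cells and 18 in knockdown cells, and Vil1 had 1 and 7. The other low markers were not higher in this way: Krt8 had 7 and 8 reads, Lgals4 28 and 23, and Muc2 3 and 1. The part of these differences in the GBP and IRG values was not tested.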

How the data were processed

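The authors deposited 1 table of FPKM values for 54680 loci, with gene model lengths, per the file headers. HISAT2, featureCounts 1.5.0-p3 and GRCm38 are named in the submitters' processing notes. Strand setting, annotation release and the treatment of reads with several matches are not given in the sources used here. Total RNA was extracted with TRIzol and NEBNext Ultra libraries were prepared, per the labels. FPKM times length gave whole reads for 100% of the values above 0, within 0.001 read, at a common depth of 18731117 reads for both libraries. Of 54409 IDs found in GENCODE M21, 98.3% had the same start and end in the table. Log2 ratios used a pseudocount of 1 FPKM, a filter of 1 FPKM in at least 1 library and a 2-fold call.

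Members and lists were chosen with earlier results of these data known. Named genes were the members, other family genes with reads, the highest and lowest of each list, the nearest neighbours and the 3 genes nearest to the members' median; any other gene named was picked after its values were known. Where a symbol had several loci, that with most reads was used. Exon overlaps and shared transcript windows of 50 bases came from GENCODE M21, chosen after seeing the data, and promoters came from RefSeq. The Igtp and Irgm2 windows were aligned locally. The planned protein features were not analysed here, and some listed genes are not reported here. Other pseudocounts, filters, thresholds and scalings were tried. The calculations were tested on simulated data. Tools were biopython 1.88, scipy 1.17.1, pandas 2.3.3, numpy 2.4.6 and matplotlib 3.10.9 under Python 3.11.15.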

Additional observations from a re-analysis of the deposited data

How the results depend on the processing

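The filter of 1 FPKM leaves 6 members, and all 6 were called, so their count could not rise under a setting that keeps this filter. It was 6 under a pseudocount of 0.1 (10.6% of all genes called higher), scaling by own read totals (6.35%), the median ratio (6.85%) or the upper quartile (6.29%), log2(CPM + 1) (7.30%) and a 1.5-fold threshold (16.9%), and 6 of 10 without a filter (1.33%). It was 4 of 4 with a filter of 5 FPKM (7.63%) and 3 at a threshold of 4-fold (1.09%). Those 4, Gbp2, Irgm1, Irgm2 and Igtp, reached 5 FPKM only through the knockdown library, so the count of 4 of 4 weighs less. When all 10 members are counted whatever their level, 8 passed 2-fold on log2(CPM + 1), and 8 when 0.1 was the pseudocount. The members' median log2 ratio of 1.60 was 2.46 when the pseudocount was 0.1 and 2.23 for log2(CPM + 1), since both settings shrink the pseudocount relative to the levels, and 1.14 without a filter, which adds the 4 members under 1 FPKM. Under the 3 scalings it lay between 1.55 and 1.60. Of 50 alternative values of single members, 42 stayed within counting error, 8 moved and 0 reversed. This tally was partly fixed in advance. Values of Gbp6, with 0 control reads, could not be labelled as moved. A reversal was defined only for members called at 2-fold, which leaves out Gbp5, Gbp6, Gbp9 and Iigp1. Intervals of low genes are wide, so Gbp5 at 1.61 in place of 0.37 was labelled as within counting error. With a pseudocount of 0.1, Gbp3 was at 3.79, and Gbp9 at 1.91 and Gbp5 at 1.61, both under the filter, passed 2-fold. No paired analysis was possible because there was a single library per group, which also left no library to leave out. Depth limits Gbp6 and Iigp1 most.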

Other observations

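Genes of the very large inducible GTPases (GVIN), relatives of the GBPs, were also near silent. Gvin1 had 3 reads in control cells and 10 in knockdown cells, and Gm4070, with which it shares 99.2% of its 50-base windows, had 2 and 11. Over 5 GVIN loci the reads were 44 and 75, a ratio of 1.65 (1.12 to 2.45), most of them from Gm8995 with 39 and 54. Gm8995 is annotated as a transcribed unprocessed pseudogene. Gm8979 and Gm1966, with 0 reads in both libraries, are annotated as unprocessed pseudogenes.

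Irgq, an IRG-like gene that interferon is not known to induce, was well expressed in both libraries, at 9.15 FPKM (1042 reads) in control cells and 11.3 FPKM (1292 reads) in knockdown cells, a ratio of 1.199 (1.10 to 1.30). In the control library this level exceeded that of every member. The locus 9930111J21Rik2, a GTPase-like gene in the Irgm1 cluster, was lower in knockdown cells, with 67 and 27 reads and a ratio of 0.390 (0.240 to 0.618), and it shares 59.8% of its 50-base windows with other genes, mainly 9930111J21Rik1.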
